A study of Mus musculus with 27 samples.

Results

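The genes followed here are the folding and export machinery of the endoplasmic reticulum (ER): chaperones, disulfide isomerases, degradation and translocation factors, oligosaccharyltransferase subunits and coat proteins of the vesicles that run between ER and Golgi. They were taken by name from a list of 40 genes, which was drawn up with earlier results of these data known, and no threshold on a measured value was applied to them. For 39 of the 40 a probe set was annotated to that symbol alone, and these 39 are the members described among 19935 genes tested. Kdelr2, the remaining name, was not analysed here.

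RNA was profiled on Affymetrix arrays from marrow cells of femurs and tibiae of C57BL/6 mice aged 8 to 12 weeks. The treated cultures received Cyclosporin A (CsA) at 2 µg/ml, added 30 min before Flt3 ligand (Flt3-L) and kept throughout, and were sampled at 12 h, 24 h, 48 h and 11 days. The cultures they are set against had Flt3-L alone for the same times, at about 200 ng/ml in both arms and supplied by transfected B16 tumour cells. A ninth group was unstimulated bone marrow cells, and the labels do not state whether these were taken fresh or kept in culture, nor a vehicle for the cultures without CsA. Each of the 9 groups had 3 arrays, described as biological replicates. CsA blocks the phosphatase calcineurin and thereby keeps NFAT transcription factors out of the nucleus, and it does so bound to cyclophilins. Flt3-L drives marrow progenitors toward dendritic and other myeloid cells.

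The ER is where secreted and membrane proteins are threaded through a translocon, lose their signal peptide, receive a glycan and are folded, and from where coated vesicles carry them to the Golgi. When unfolded protein builds up, the sensors Ire1, Atf6 and Perk start the unfolded protein response, in which spliced Xbp1 and cleaved Atf6 raise transcription of chaperone and export genes, while Perk acts through translation and Atf4. Secreting cells such as plasma cells use the same program to widen their ER.

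The median signal per array ran from 114.2 to 124.8 (linear scale), and arrays of a group correlated at 0.9966 or more across genes. On 26 of 27 arrays the nearest other array was one of the same group. The exception was the third CsA array at 12 h, which lay nearest to the third array with Flt3-L alone at 12 h, and the count of members called at 12 h is therefore also given without it. The summed signal of 11 late neutrophil markers was 64392 to 66294 on the unstimulated arrays, and that of 10 conventional dendritic cell markers was 19330 to 20289 with Flt3-L alone at 11 days, against 7503 to 7650 in unstimulated cells.

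Several members carry known ER stress motifs in the 300 bases around their start, so these are shown first. RefSeq windows of 250 bases before to 50 bases after the annotated start (GRCm38.p6) were at hand for 34 of the 40 listed genes and not for Alg2, Atf6, Hyou1, Kdelr2, Manf and Sec61a1. Both strands were searched for the ER stress element (CCAAT and CCACG with 9 bases between them), the ER stress element II (ATTGG and CCACG with 1 base between them), the XBP1 element TGACGTGG and the ATF4 composite element TGATGNAAT. CCAAT and CCACG, searched on their own as well, are parts of the ER stress element, CCACG is also part of the ER stress element II, and ATTGG is CCAAT read on the other strand. The ER stress element was found in 8 of 34 members (23.5%), against 37 of 27025 genes with a window (0.137%). The ER stress element II was in 3 of 34 members (8.82%), against 0.0444% of genes. The XBP1 element was in 2 members (5.88%, against 0.714% of genes) and the ATF4 composite element in 0 of 34 (1.08% of genes). The part CCACG alone was in 30 of 34 members, 88.2% against 35.5% of genes, and CCAAT alone in 25, 73.5% against 41.1%.

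The following stretches are the upstream matches with 12 flanking bases on each side, given on the strand of the gene with the matched element in capitals, because they are the sequences on which ATF6 and XBP1 are known to act in chaperone genes. On the plus strand they lie at chr2:34772013-34772055 (Hspa5), chr14:118937815-118937857 (Dnajc3), chr12:17266479-17266521 (Pdia6), chr15:88819508-88819550 (Creld2), chr19:6046520-6046562 (Syvn1), chr8:94386365-94386399 (Herpud1) and chr3:123267458-123267489 (Sec24d). On the minus strand they lie at chr10:86705626-86705668 and chr10:86705521-86705563 (Hsp90b1, far and near), chr8:84847063-84847105 (Calr) and chr11:50325788-50325830 (Canx).
Hspa5: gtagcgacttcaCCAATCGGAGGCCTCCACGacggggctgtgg
Dnajc3: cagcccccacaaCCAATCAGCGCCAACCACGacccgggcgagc
Pdia6: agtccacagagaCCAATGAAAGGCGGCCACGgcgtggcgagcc
Syvn1: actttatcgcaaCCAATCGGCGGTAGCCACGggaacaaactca
Canx: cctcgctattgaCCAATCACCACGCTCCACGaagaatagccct
Hsp90b1, far: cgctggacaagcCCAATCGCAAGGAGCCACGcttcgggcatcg
Hsp90b1, near: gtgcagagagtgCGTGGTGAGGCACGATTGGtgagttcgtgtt
Calr: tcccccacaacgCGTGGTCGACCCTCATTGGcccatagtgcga
Creld2: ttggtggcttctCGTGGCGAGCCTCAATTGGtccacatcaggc
Herpud1: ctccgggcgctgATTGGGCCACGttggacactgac
Sec24d: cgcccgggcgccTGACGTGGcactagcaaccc
The elements of Hspa5, Dnajc3, Pdia6, Syvn1 and Canx and the far one of Hsp90b1 read along the gene, and those of Calr and Creld2 and the near one of Hsp90b1 read on the opposite strand. They sat between 26 and 212 bases upstream of the start, nearest in Syvn1 (26 to 44 bases) and farthest in Hsp90b1 (194 to 212 bases). Herpud1 had an ER stress element II 42 to 52 bases upstream, and Sec24d an XBP1 element 19 to 26 bases upstream. Of the other matches, the ER stress elements II of Dnajb11 and Krtcap2 began 8 and 18 bases past the start, and the XBP1 element of Copb2 lay across the start.

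Whole upstream stretches are given for 3 members whose values are given array by array. Hspa5 (chr2:34771840-34772089, plus strand) has its ER stress element in capitals and Sec24d (chr3:123267246-123267495, plus strand) its XBP1 element. Dnajb9 (chr12:44210069-44210318, minus strand) has no match to a whole element in its window, and its CCACG and CCAAT letters are in capitals.
Hspa5: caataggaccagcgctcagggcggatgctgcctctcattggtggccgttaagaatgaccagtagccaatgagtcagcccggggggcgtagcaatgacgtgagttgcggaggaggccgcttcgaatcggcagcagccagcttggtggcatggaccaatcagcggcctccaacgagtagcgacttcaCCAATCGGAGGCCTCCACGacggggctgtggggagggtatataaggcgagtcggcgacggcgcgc
Sec24d: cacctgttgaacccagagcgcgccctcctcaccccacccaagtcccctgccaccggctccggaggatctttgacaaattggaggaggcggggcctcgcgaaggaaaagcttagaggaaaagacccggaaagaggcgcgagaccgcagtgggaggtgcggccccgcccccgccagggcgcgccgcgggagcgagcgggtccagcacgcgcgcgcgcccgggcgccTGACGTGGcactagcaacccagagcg
Dnajb9: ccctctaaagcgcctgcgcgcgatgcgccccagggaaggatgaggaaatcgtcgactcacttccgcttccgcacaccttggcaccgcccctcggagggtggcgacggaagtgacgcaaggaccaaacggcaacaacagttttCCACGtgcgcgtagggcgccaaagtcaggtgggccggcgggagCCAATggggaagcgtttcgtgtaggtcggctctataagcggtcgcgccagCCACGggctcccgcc
A match is a stretch of letters and not a binding site that was measured.

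**Figure D1:**
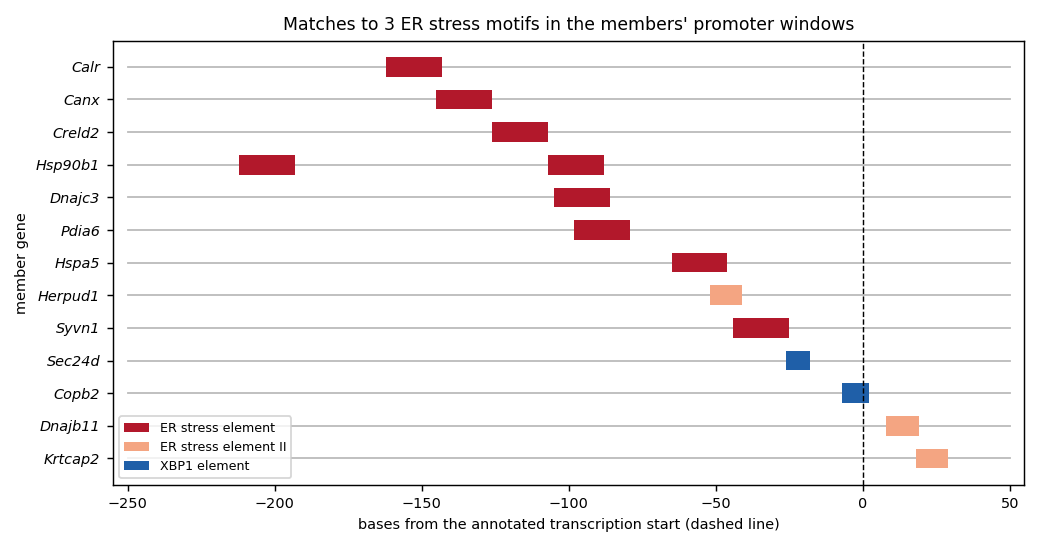
Positions of the motif matches in the promoter windows of the 13 members that have one, in bases from the annotated start (dashed line), with the window drawn as a grey line from 250 bases before to 50 bases after it and each match as a coloured block. The ER stress elements of 8 members lie between 26 and 212 bases upstream, while the elements of Dnajb11 and Krtcap2 lie past the start and that of Copb2 lies across it.

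The main comparison asks what the ER genes did when CsA was present from the start of the Flt3-L culture. With CsA, most of them were higher than with Flt3-L alone at 12 h, 24 h and 48 h, by small amounts. At 11 days few were. In the limma fit with Benjamini-Hochberg adjustment over all genes, 23 of 39 members were called higher at 12 h (2.82% of all genes tested were), 24 at 24 h (1.60%), 24 at 48 h (2.17%) and 6 at 11 days (4.92%). No member was called lower at any of these times, where 3.91%, 2.19%, 2.34% and 7.08% of all genes were. At an unadjusted p under 0.05, 0 members were lower at the 3 earlier times and 2 were at 11 days. Without the third CsA array at 12 h, 24 members were called at that time. The median log2 difference of the 39 members, CsA minus Flt3-L alone, was 0.24 at 12 h, 0.28 at 24 h, 0.27 at 48 h and 0.01 at 11 days. The medians over all genes were −0.04, −0.01, 0.02 and 0.03 at those times. All further differences are in log2 with the SE of the fit over 9 groups of 3 arrays. In these bulk samples, fewer cells of a type and less RNA per cell cannot be told apart.

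Among the members, which were chosen with earlier results of these data known, the difference from Flt3-L alone covered most rather than a few. Of the 39 members, 38 had a positive difference at each of 12 h, 24 h and 48 h, the exception being Sdf2l1 at 12 h. All 3 CsA arrays lay above all 3 arrays with Flt3-L alone for 34 members at 12 h (12.0% of all genes), 31 at 24 h (7.41%), 34 at 48 h (11.7%) and 11 at 11 days (17.2%). Called at each of the 3 earlier times were 18 members (0.577% of all genes were), called at 1 or 2 of these times were 10, and 10 were called in none of the 4 comparisons. In the F test over the 4 CsA effects, 34 of 39 members had an adjusted p under 0.05, as did 18.8% of all genes. The 5 members not called there were Calr, Dad1, Edem1, Herpud1 and Syvn1. Fitted on the 2 compared groups alone, with fewer arrays behind each variance, limma called 10, 13, 15 and 3 members in order of time, none lower, and without the second array with Flt3-L alone at 11 days it called 3 there. The calls of 10 members at 12 h held under every alternative tried (Alg2, Bet1, Ddost, Dnajb9, Hyou1, Pdia3, Pdia4, Rpn1, Sec24d and Ssr3). At 24 h 13 held (Alg2, Bet1, Dnajb9, Dnajc3, Hyou1, Krtcap2, Pdia6, Sec23b, Sec24d, Sec61a1, Spcs2, Srprb and Ssr3). The 13 that held at 48 h had Rpn1 in place of Bet1, and at 11 days Atf6, Ern1 and Krtcap2 held.

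**Figure D2:**
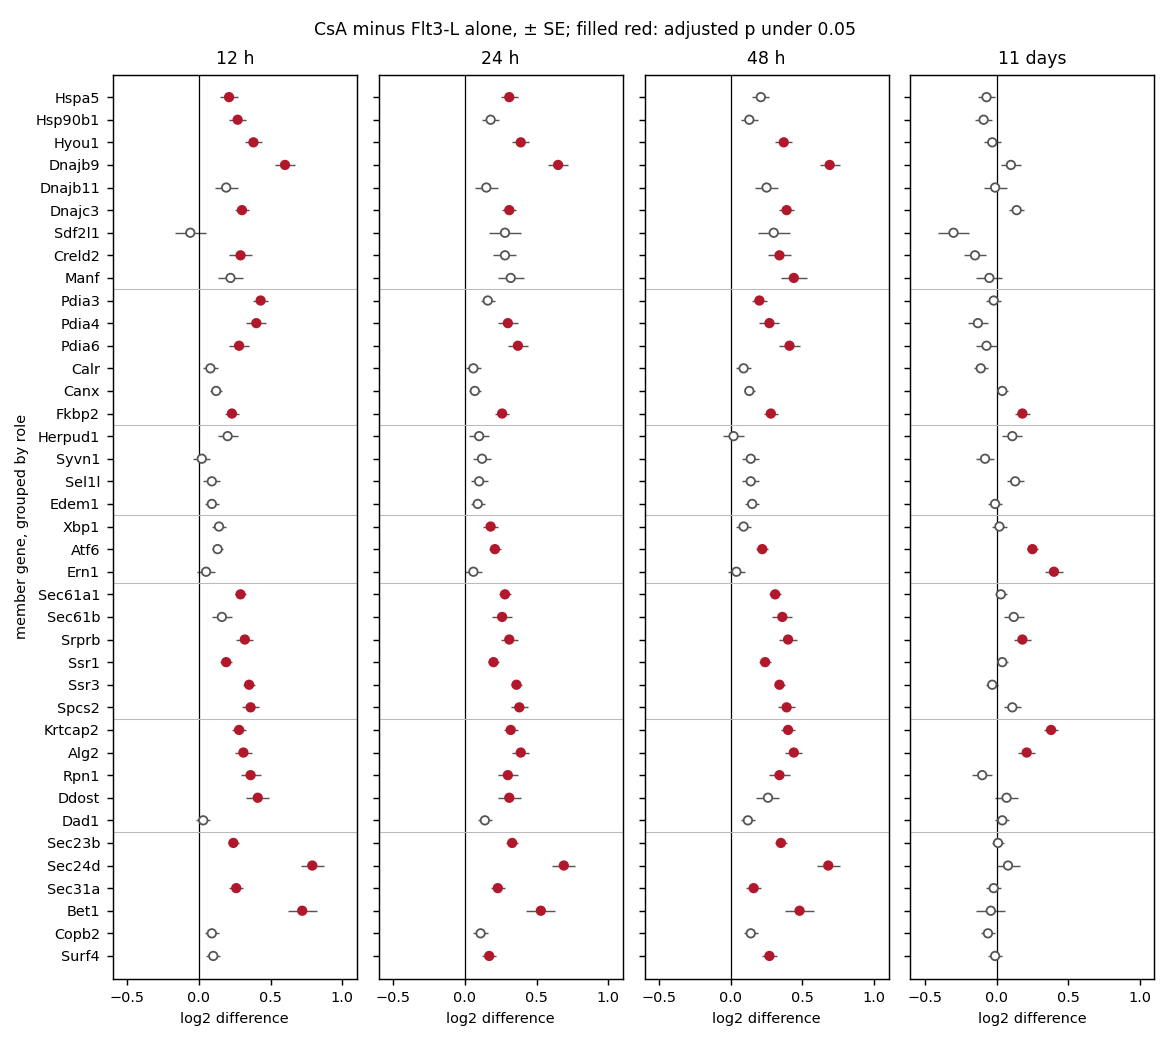
Log2 difference of CsA minus Flt3-L alone (horizontal axis, ± SE from limma, 3 arrays a group) for each of the 39 members at 12 h, 24 h, 48 h and 11 days, with members grouped by role and filled red where the adjusted p was under 0.05. The 23, 24 and 24 filled points at the earlier times all lie right of zero and 6 points are filled at 11 days.

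**Figure D3:**
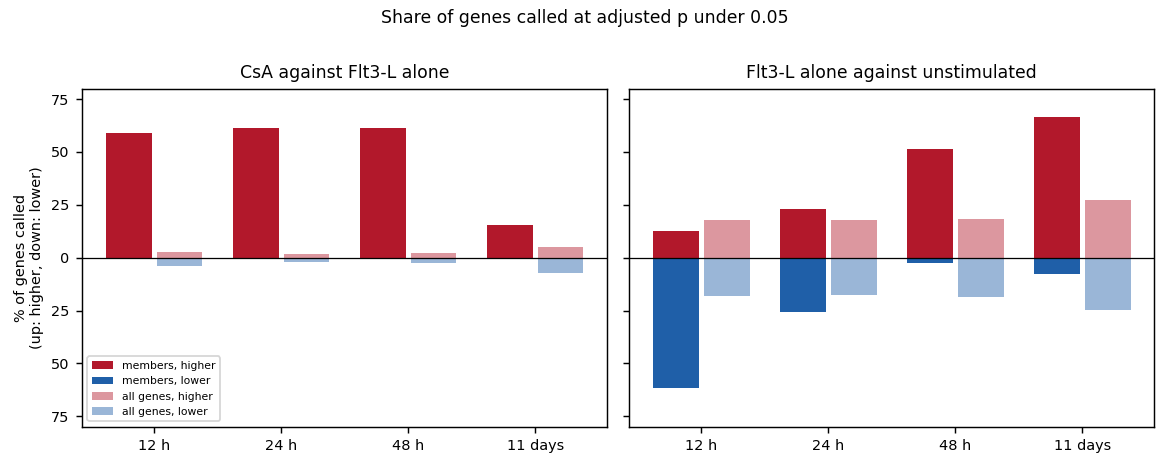
Percent of the 39 members and of all 19935 genes called at an adjusted p under 0.05, higher above the zero line and lower below it, for CsA against Flt3-L alone (left) and Flt3-L alone against unstimulated cells (right). With CsA, 59.0%, 61.5%, 61.5% and 15.4% of members were higher; with Flt3-L alone at 12 h, 61.5% were lower than in unstimulated cells.

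The counts by role that follow compare CsA with Flt3-L alone and not with unstimulated cells. Of the 9 luminal Hsp70, Hsp90 and J-protein chaperones and partners, 6 were called higher at 12 h. At 24 h 4 were, at 48 h 5 and at 11 days 0. Values array by array are given for the 12 members with the smallest F test p over the CsA effects. They are also given for Hspa5, Xbp1, Atf6, Ern1, Herpud1 and Sdf2l1. For the 12, separate arms follow in part from that choice and are a description only. Dnajb9, a J-protein that hands misfolded clients to BiP and restrains Ire1, had the smallest F test p of all members. At 12 h its signal was 1096, 1096 and 1032 with CsA, against 636, 781 and 720 with Flt3-L alone. At 24 h it was 1269, 1160 and 1157 with CsA, against 673, 807 and 812 with Flt3-L alone. The arms were as far apart at 48 h, with 1260, 1302 and 1313 under CsA, against 781, 817 and 798 with Flt3-L alone. At these 3 times no array of one arm reached into the range of the other, and the CsA arrays stood near the unstimulated ones (1166, 1119 and 1123). At 11 days the CsA arrays read 1156, 1172 and 1245, against 1025, 1153 and 1153 with Flt3-L alone, and the lowest CsA array was hardly above the highest array without it. The differences were 0.60 ± 0.07, 0.65 ± 0.07 and 0.69 ± 0.07 at the earlier times (adjusted p 2.1e-05, 2.8e-06 and 9.7e-07), or 1.51-, 1.57- and 1.62-fold, and 0.10 ± 0.07 at 11 days (adjusted p 0.41).

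Hyou1, the nucleotide exchange partner of BiP, had 1350, 1370 and 1353 with CsA at 12 h, against 1116, 1013 and 1008 with Flt3-L alone. At 24 h its arrays read 1398, 1587 and 1506 with CsA, against 1099, 1126 and 1192 without, and at 48 h 1706, 1780 and 1565 with CsA, against 1246, 1279 and 1373 without. The arms did not overlap at any of these times. Its 11 day signals were 1242, 1199 and 1217 with CsA, against 1284, 1171 and 1282 with Flt3-L alone, and overlapped. Its differences were 0.38 ± 0.06, 0.39 ± 0.06, 0.37 ± 0.06 and −0.03 ± 0.06 in order of time, the first 3 called (adjusted p 0.0011, 3.1e-04 and 4.6e-04). Dnajc3, a J-protein co-chaperone of BiP, gave 1153, 1144 and 1108 with CsA at 12 h, against 962, 909 and 898 with Flt3-L alone. Its values at 24 h were 1181, 1307 and 1275 with CsA, against 995, 992 and 1049 without. At 48 h they were 1580, 1591 and 1515 with CsA, against 1147, 1208 and 1223 without. All CsA arrays lay above the arrays without it, and this was also so at 11 days (1568, 1528 and 1522 with CsA, against 1461, 1316 and 1412 with Flt3-L alone). Dnajc3 was called at the 3 earlier times (0.30 ± 0.05, 0.31 ± 0.05 and 0.39 ± 0.05) and not at 11 days (0.14 ± 0.05, adjusted p 0.1). Its 2 probe sets gave the same mean log2 signal (10.25) and the same 4 differences, so that they may not be separate measurements.

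Hspa5 itself, which encodes BiP, the Hsp70 of the ER, was called at 12 h and 24 h. Its signals at 12 h were 3565, 3466 and 3480 with CsA, against 3216, 2906 and 2985 with Flt3-L alone. At 24 h they were 3757, 4105 and 4375 with CsA, against 3082, 3290 and 3519 without, and at 48 h 4637, 4578 and 4514 with CsA, against 3888, 3807 and 4173 without. The 11 day arrays of Hspa5 read 4349, 3980 and 4110 with CsA, against 4612, 4090 and 4367 with Flt3-L alone, and overlapped, whereas at the 3 earlier times they did not. The difference was 0.21 ± 0.06 at 12 h (adjusted p 0.045), 0.31 ± 0.06 at 24 h (0.0037), 0.21 ± 0.06 at 48 h (0.052) and −0.07 ± 0.06 at 11 days (0.53). With the replicate number as a block in limma, the 48 h difference of Hspa5 had an adjusted p of 0.037. Hsp90b1, the Hsp90 of the ER (GRP94), was called at 12 h alone, with differences of 0.27 ± 0.06, 0.18 ± 0.06, 0.13 ± 0.06 and −0.09 ± 0.06 in order of time.

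Creld2 and Manf, both small proteins made under ER stress and partly secreted, were called at 12 h and 48 h (0.29 ± 0.08 and 0.34 ± 0.08) and at 48 h alone (0.44 ± 0.09). At 24 h their differences were 0.28 ± 0.08 and 0.32 ± 0.09, with adjusted p of 0.068 and 0.058, or 0.0414 and 0.036 with the replicate block. Sdf2l1 and Dnajb11, which act together in a chaperone complex, were called at no time. Sdf2l1 had 1180, 1072 and 1028 with CsA at 12 h, against 1041, 1260 and 1128 with Flt3-L alone, so that the arms overlapped. At 24 h it had 1806, 1896 and 1555 with CsA, against 1432, 1621 and 1289 without, again with overlap. Its 48 h signals were 2684, 2415 and 2274 with CsA, against 2075, 2087 and 1830 without, and the arms no longer overlapped. At 11 days the order was the opposite, with 1852, 1570 and 1775 under CsA, against 1959, 2409 and 2061 with Flt3-L alone, and the difference of −0.30 ± 0.11 had an adjusted p of 0.069. Dnajb11 had differences of 0.19 ± 0.08, 0.15 ± 0.08, 0.25 ± 0.08 and −0.01 ± 0.08.

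Of the 6 disulfide isomerases, lectin chaperones and prolyl isomerase, 4 were called higher with CsA than with Flt3-L alone at 12 h. At 24 h 3 were, at 48 h 4 and at 11 days 1. Pdia4 and Pdia6, which form and shuffle disulfide bonds, were called at each earlier time, with 0.40 ± 0.07, 0.30 ± 0.07 and 0.27 ± 0.07 for Pdia4 and 0.28 ± 0.07, 0.37 ± 0.07 and 0.41 ± 0.07 for Pdia6. A dimmer second probe set of Pdia4 (mean log2 6.80) gave 0.16, 0.30 and 0.24 at those times. Pdia3, the isomerase that works with the lectin chaperones, had its largest difference at 12 h (0.43 ± 0.05, adjusted p 1.9e-05). It was 0.16 ± 0.05 at 24 h, which was not called, and 0.20 ± 0.05 at 48 h, which was. Fkbp2, an ER prolyl isomerase of the FK506-binding family, was called at all 4 times, with 0.23 ± 0.05, 0.26 ± 0.05, 0.28 ± 0.05 and 0.18 ± 0.05. Calr and Canx, the lectin chaperones calreticulin and calnexin that hold glycoproteins while they fold, were called at none. Their differences ran between −0.11 and 0.09 for Calr and between 0.04 and 0.13 for Canx over the 4 times.

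None of the 4 genes of ER-associated degradation was called in any CsA comparison, and their median difference was 0.09 at 12 h, 0.10 at 24 h, 0.14 at 48 h and 0.05 at 11 days. Herpud1, an adaptor of the Hrd1 ligase and a classical stress-induced gene, had 3664, 3599 and 3628 with CsA at 12 h, against 3282, 3021 and 3183 with Flt3-L alone. At 24 h its arrays read 3074, 3027 and 3435 with CsA, against 2928, 2777 and 3179 without. At 48 h they were 2348, 2455 and 2475 with CsA, against 2348, 2240 and 2610 without. The arms stood apart at 12 h and overlapped at 24 h and 48 h. After 11 days they were 1665, 1485 and 1651 with CsA, against 1547, 1320 and 1578 without, and overlapped too. The differences of Herpud1 were 0.20 ± 0.07 (adjusted p 0.082), 0.10 ± 0.07, 0.02 ± 0.07 and 0.11 ± 0.07. Syvn1, the Hrd1 ubiquitin ligase, had differences between −0.08 and 0.14, and Sel1l, its partner, between 0.09 and 0.14. Edem1, which marks glycoproteins for degradation, had 0.15 ± 0.05 at 48 h (adjusted p 0.089, or 0.0499 with the replicate block).

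The 3 sensors and transcription factors took separate courses. Xbp1, whose mRNA Ire1 splices, had 2854, 3154 and 2857 with CsA at 12 h, against 2712, 2659 and 2652 with Flt3-L alone. Its 24 h values were 3406, 3137 and 3083 with CsA, against 2874, 2878 and 2750 without, and its 48 h values 3244, 3295 and 3176 with CsA, against 3032, 3043 and 3032 without. At these 3 times all CsA arrays lay above the arrays without it. The 11 day arrays read 2846, 2826 and 2753 with CsA, against 2843, 2770 and 2713 without. Only the 24 h difference was called for Xbp1 (0.18 ± 0.05, adjusted p 0.036), beside 0.14 ± 0.05, 0.09 ± 0.05 and 0.02 ± 0.05 at the other times. The signal is one value for all Xbp1 transcripts of the probe set, and splicing was not measured.

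Atf6, the membrane-bound factor released by cleavage in the Golgi, was called higher with CsA from 24 h on and not at 12 h. It read 1181, 1169 and 1149 with CsA at 12 h, against 1106, 1020 and 1077 with Flt3-L alone. It was 1246, 1185 and 1206 with CsA at 24 h, against 1066, 1027 and 1044 without. By 48 h the signals were 1414, 1467 and 1371 with CsA, against 1245, 1196 and 1204 without. The CsA arrays were the higher ones throughout, also at 11 days (1693, 1803 and 1720 with CsA, against 1469, 1430 and 1477 with Flt3-L alone). The differences of Atf6 were 0.13 ± 0.04, 0.21 ± 0.04, 0.22 ± 0.04 and 0.25 ± 0.04, called from 24 h on.

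Ern1, which encodes the sensor Ire1 alpha, was called at 11 days alone. At 12 h its arrays read 766, 806 and 743 with CsA, against 743, 764 and 724 with Flt3-L alone. They read 795, 790 and 753 with CsA at 24 h, against 753, 760 and 723 without, and 770, 806 and 775 with CsA at 48 h, against 752, 788 and 754 without. The arms overlapped at each of these times. At 11 days Ern1 had 832, 987 and 894 with CsA, against 658, 682 and 711 with Flt3-L alone, with no overlap. That difference was 0.40 ± 0.06 (adjusted p 1.2e-05), beside 0.05 ± 0.06, 0.06 ± 0.06 and 0.04 ± 0.06 earlier. It exceeded the mean of the 3 earlier effects by 0.35 ± 0.07 (adjusted p 5.7e-04), and Ern1 was the only member whose effect was called larger at 11 days.

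All 6 translocation and signal peptide genes were called higher with CsA than with Flt3-L alone at 24 h and at 48 h. At 12 h 5 of the 6 were, and at 11 days 1. Sec61a1, the pore of the translocon, had 3570, 3455 and 3455 with CsA at 12 h, against 2911, 2838 and 2844 with Flt3-L alone. Its arrays read 3594, 3703 and 3823 with CsA at 24 h, against 3009, 3075 and 3080 without, and 4262, 4448 and 4170 with CsA at 48 h, against 3432, 3442 and 3503 without. At 11 days they read 3472, 3609 and 3455 with CsA, against 3539, 3281 and 3515 without, the only time at which the arms overlapped. The differences of Sec61a1 were 0.29 ± 0.04, 0.28 ± 0.04, 0.31 ± 0.04 and 0.03 ± 0.04. Sec61b, a small translocon subunit, had 0.16 ± 0.07 at 12 h and was called at 24 h (0.26 ± 0.07) and 48 h (0.36 ± 0.07). Its 2 other probe sets had positive differences at all 4 times as well.

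Ssr3, a subunit of the translocon-associated TRAP complex, had 2390, 2450 and 2359 with CsA at 12 h, against 1821, 1922 and 1905 with Flt3-L alone. At 24 h it had 2466, 2448 and 2410 with CsA, against 1810, 1953 and 1930 without. Its signals at 48 h were 2898, 2874 and 2772 with CsA, against 2277, 2331 and 2166 without. The arms were well apart at these times and overlapped at 11 days (2631, 2705 and 2596 with CsA, against 2698, 2774 and 2647 without). Ssr3 differed by 0.35 ± 0.04, 0.36 ± 0.04, 0.34 ± 0.04 and −0.03 ± 0.04, and Ssr1 of the same complex by 0.19 ± 0.04, 0.20 ± 0.04, 0.24 ± 0.04 and 0.04 ± 0.04.

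Srprb, the membrane anchor of the signal recognition particle receptor, had 526, 540 and 479 with CsA at 12 h, against 433, 410 and 390 with Flt3-L alone. The 24 h signals were 595, 614 and 619 with CsA, against 488, 504 and 486 without. Those at 48 h were 832, 827 and 805 with CsA, against 581, 615 and 676 without. Srprb kept non-overlapping arms at 11 days, with 854, 946 and 892 under CsA, against 784, 782 and 812 with Flt3-L alone. It was called at all 4 times (0.32 ± 0.06, 0.31 ± 0.06, 0.40 ± 0.06 and 0.18 ± 0.06). Spcs2, a subunit of signal peptidase, read 1616, 1806 and 1533 with CsA at 12 h, against 1343, 1255 and 1261 with Flt3-L alone. It read 1883, 1760 and 1791 with CsA at 24 h, against 1325, 1359 and 1489 without, and 1937, 1999 and 1947 with CsA at 48 h, against 1422, 1565 and 1514 without. Its 11 day arrays did not overlap either (1787, 1857 and 1865 with CsA, against 1737, 1675 and 1710 without), but the difference there (0.11 ± 0.06) was not called, after 0.36 ± 0.06, 0.38 ± 0.06 and 0.39 ± 0.06 at the earlier times.

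In N-glycosylation, 4 of 5 members were called higher with CsA than with Flt3-L alone at 12 h. At 24 h 4 were, at 48 h 3 and at 11 days 2. Krtcap2, a subunit of the oligosaccharyltransferase, was called at all 4 times. Its signals were 2415, 2454 and 2337 with CsA at 12 h, against 1976, 2013 and 1931 with Flt3-L alone. At 24 h they were 2538, 2509 and 2534 with CsA, against 2071, 2072 and 1952 without, and at 48 h 3024, 3035 and 3000 with CsA, against 2338, 2201 and 2315 without. The 11 day arrays read 2867, 3240 and 2935 with CsA, against 2313, 2347 and 2297 without, so that every CsA array was above every array without it at each time. Krtcap2 differed by 0.28 ± 0.05, 0.32 ± 0.05, 0.40 ± 0.05 and 0.38 ± 0.05 (adjusted p 1.7e-06 at 11 days). Alg2, a mannosyltransferase that builds the glycan before its transfer, had 623, 598 and 599 with CsA at 12 h, against 483, 495 and 486 with Flt3-L alone. It had 727, 723 and 706 with CsA at 24 h, against 568, 555 and 519 without, and 875, 880 and 850 with CsA at 48 h, against 615, 661 and 644 without. With 856, 922 and 869 under CsA, against 776, 739 and 772 with Flt3-L alone at 11 days, its arms did not overlap at any time. The differences of Alg2 were 0.31 ± 0.06, 0.39 ± 0.06, 0.44 ± 0.06 and 0.21 ± 0.06, each called.

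The remaining oligosaccharyltransferase subunits did not move alike. Rpn1 was called at the 3 earlier times (0.36 ± 0.07, 0.30 ± 0.07 and 0.34 ± 0.07) and had −0.10 ± 0.07 at 11 days. Ddost was called at 12 h (0.41 ± 0.08) and 24 h (0.31 ± 0.08), and at 48 h its 0.26 ± 0.08 had an adjusted p of 0.074, or 0.046 with the replicate block. Dad1, a small subunit, was called at no time, with differences between 0.03 at 12 h and 0.14 at 24 h.

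Vesicle export held the largest difference of any member at 12 h and at 24 h, that of Sec24d. Of the 6 members, 4 were called higher with CsA than with Flt3-L alone at 12 h. At 24 h 5 were, at 48 h 5 and at 11 days 0. Sec24d, a cargo-binding subunit of the COPII coat, had 587, 598 and 534 with CsA at 12 h, against 335, 313 and 345 with Flt3-L alone. Its arrays at 24 h read 605, 714 and 704 with CsA, against 378, 425 and 449 without. At 48 h the signals were 863, 908 and 887 with CsA, against 517, 546 and 604 without. The lowest CsA array was above the highest array without CsA at each of these times. After 11 days Sec24d had 755, 753 and 749 with CsA, against 749, 636 and 757 with Flt3-L alone. The mean log2 signal of the CsA arm was then 9.56, against 9.79 at 48 h, and that of the Flt3-L arm 9.48, against 9.12 at 48 h. Unstimulated cells had 308, 364 and 343 (linear scale). Sec24d differed by 0.79 ± 0.08, 0.69 ± 0.08 and 0.68 ± 0.08 (adjusted p 3.2e-06, 6.3e-06 and 8.1e-06), which is 1.73-, 1.62- and 1.6-fold, and by 0.08 ± 0.08 at 11 days.

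Bet1, a SNARE of ER-to-Golgi vesicles, had 451, 434 and 371 with CsA at 12 h, against 245, 242 and 272 with Flt3-L alone. At 24 h it had 388, 418 and 435 with CsA, against 235, 319 and 310 without, and at 48 h 408, 446 and 482 with CsA, against 277, 340 and 344 without. These arms did not overlap, and at 11 days they did (522, 526 and 559 with CsA, against 524, 556 and 575 without). The differences were 0.72 ± 0.10, 0.53 ± 0.10, 0.48 ± 0.10 and −0.04 ± 0.10 in order of time. Sec23b, the inner coat partner of Sec24 proteins, read 1388, 1400 and 1356 with CsA at 12 h, against 1133, 1162 and 1214 with Flt3-L alone. It read 1558, 1561 and 1576 with CsA at 24 h, against 1192, 1266 and 1275 without, and 1775, 1761 and 1810 with CsA at 48 h, against 1408, 1404 and 1388 without. At 11 days the arrays overlapped (1532, 1537 and 1491 with CsA, against 1479, 1483 and 1579 without). Sec23b differed by 0.24 ± 0.04, 0.33 ± 0.04, 0.35 ± 0.04 and 0.01 ± 0.04.

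Sec31a, of the outer COPII coat, was called at the 3 earlier times, with 0.26 ± 0.05, 0.23 ± 0.05 and 0.16 ± 0.05. Surf4, a cargo receptor of export vesicles, was called at 24 h (0.17 ± 0.05) and 48 h (0.27 ± 0.05), after 0.10 ± 0.05 at 12 h. Copb2, a subunit of the COPI coat that brings vesicles back to the ER, was called at no time, with differences of 0.09 ± 0.05, 0.11 ± 0.05, 0.14 ± 0.05 and −0.06 ± 0.05.

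**Figure D4:**
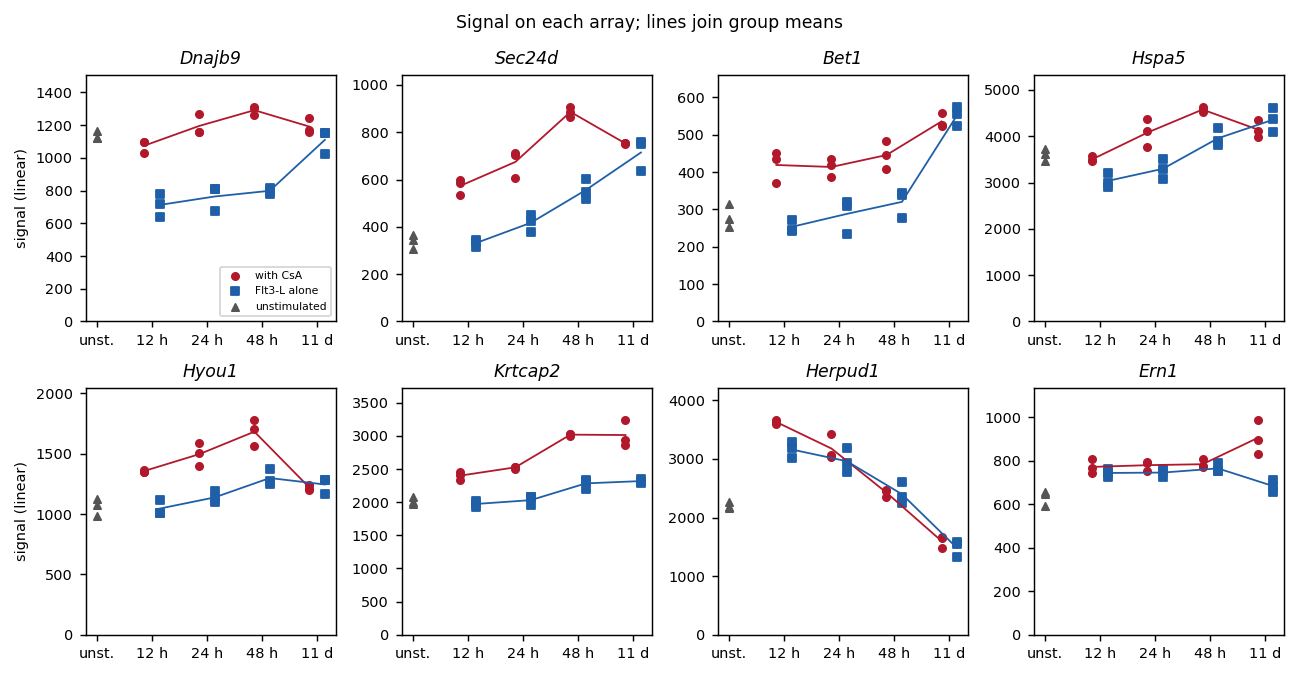
Linear signal (vertical axis from 0) of 8 members on every array against time, with circles for CsA, squares for Flt3-L alone and triangles for unstimulated cells, and lines through the group means. Dnajb9, Sec24d and Bet1 have separate arms at 12 h, 24 h and 48 h and close arms at 11 days, Krtcap2 has separate arms at all 4 times, and Ern1 at 11 days alone. Dnajb9, Sec24d, Bet1, Hyou1 and Krtcap2 were picked by a small F test p over the CsA effects, so that separate arms follow in part from the choice.

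The CsA effect on these genes was tested between times in the same fit. Larger and smaller are meant here with the sign, so that an effect that turned negative counts as smaller. Between 12 h and 24 h and between 24 h and 48 h the limma test of the difference called 0 of 39 members each time, 2 and 0 at an unadjusted p under 0.05. Of all genes, 0.0351% were called with a larger and 0.0853% with a smaller effect at 24 h than at 12 h, and 0.00% and 0.0150% at 48 h than at 24 h. At 11 days the effect was smaller than at 48 h for 16 members (4.65% of all genes) and larger for Ern1 (2.31%). Against the mean of the 3 earlier effects it was smaller for 22 members (6.70%) and larger for 1 (5.21%). The widest gaps were those of Sec24d (−0.64 ± 0.09, adjusted p 2.8e-05), Bet1 (−0.62 ± 0.12, 8.3e-04) and Dnajb9 (−0.54 ± 0.08, 4.8e-05). By role, the effect was smaller at 11 days for 7 of 9 chaperones and partners, 6 of 6 vesicle genes, 4 of 6 isomerases and lectins, 4 of 6 translocation genes, 1 of 5 glycosylation genes, and 0 of 4 degradation genes. The members called at 11 days were Alg2, Atf6, Ern1, Fkbp2, Krtcap2 and Srprb. Of these Alg2, Fkbp2, Krtcap2 and Srprb had been called at each earlier time, and the difference of Krtcap2 at 11 days minus its earlier mean was 0.04 ± 0.05 (adjusted p 0.65).

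Members with an ER stress element of either kind (11) and those with a window but neither element (23) are described by their medians. With an element, the median CsA difference was 0.21 at 12 h, 0.18 at 24 h, 0.21 at 48 h and −0.07 at 11 days. Without one it was 0.24, 0.26, 0.27 and 0.02. Called at 24 h were 4 of the 11 with an element, among them Hspa5, Dnajc3 and Pdia6, and 16 of the 23 without one. Dnajb9, whose window held neither element, and Sec24d, whose window held an XBP1 element, had larger differences than any of the 11 at 12 h, 24 h and 48 h.

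The course of the cultures with Flt3-L alone shows what the CsA cultures were set against. These comparisons share arrays with those of CsA, so that their values are given side by side and not related to each other. At 12 h with Flt3-L alone the ER genes were mostly lower than in unstimulated cells, and by 11 days mostly higher. At 12 h 5 members were higher and 24 lower (17.8% and 18.1% of all genes), at 24 h 9 and 10 (17.9% and 17.7%), at 48 h 20 and 1 (18.5% and 18.6%) and at 11 days 26 and 3 (27.2% and 24.8%). The median difference of the members was −0.21, −0.05, 0.17 and 0.27 in order of time, against 0.05, 0.04, 0.01 and 0.02 over all genes. Between successive times, 9 members were higher and 0 lower at 24 h than at 12 h (5.59% and 5.52% of all genes), and 5 were higher without the third array of either time. At 48 h 25 were higher and 1 lower than at 24 h (9.71% and 7.43%), where Creld2 (0.23, adjusted p 0.061) had 0.0418 with the replicate block, and at 11 days 15 were higher and 5 lower than at 48 h (24.2% and 18.8%). Lower at 12 h and higher at 11 days were 16 members, Hspa5, Hsp90b1, Pdia3, Rpn1 and Srprb among them. The share of all genes with both of these calls was not counted.

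Markers of several cell types changed with this course. At 11 days the summed signal of 10 monocyte and macrophage markers was 40871 to 42825 with Flt3-L alone, against 6645 to 6788 in unstimulated cells. That of 11 late neutrophil markers was 3172 to 3829 with Flt3-L alone, against 64392 to 66294. That of 9 erythroid markers was 3801 to 4115, against 36117 to 39493, and that of 6 promyelocyte markers 3278 to 3536, against 26420 to 27959. At 12 h the monocyte and macrophage sum was already 14794 to 15562 with Flt3-L alone, while the late neutrophil sum was 60642 to 61452, the erythroid sum 25752 to 28532 and the promyelocyte sum 22509 to 23279. Within the monocyte and macrophage sum, Gpnmb alone went from 142, 194 and 162 to 4942, 5073 and 4822. Mertk (−0.35 ± 0.15) and Ccr2 (−0.15 ± 0.09) were not higher at 12 h, and the other markers of that list were called higher. The part of these markers in the course of the ER genes was not tested.

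The median of the 39 members on each array, relative to unstimulated cells, shows both arms at once. At 12 h it was 0.07, 0.10 and −0.0025 on the CsA arrays, against −0.16, −0.22 and −0.24 with Flt3-L alone. At 24 h it was 0.18, 0.21 and 0.25 with CsA, against −0.08, −0.06 and −0.02 without. At 48 h it was 0.40, 0.43 and 0.38 with CsA, against 0.12, 0.12 and 0.20 without. The CsA arrays were the higher ones at each of these times, and at 11 days the arms overlapped, with 0.27, 0.29 and 0.27 under CsA, against 0.28, 0.22 and 0.27 with Flt3-L alone. These 11 day values lay below those of the CsA arrays at 48 h and above those of the Flt3-L arrays at 48 h.

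By role, the fall at 12 h took in 8 of 9 chaperones and partners, 6 of 6 isomerases and lectins and 5 of 6 translocation genes, and none of the degradation genes or sensors. Dnajb9 was lowest against unstimulated cells at 12 h (−0.68 ± 0.07, adjusted p 3.4e-08) and also lower than in those cells at 24 h (−0.58 ± 0.07) and 48 h (−0.51 ± 0.07), but not called at 11 days (−0.04 ± 0.07). Sdf2l1 had −0.63 ± 0.11 at 12 h and 0.27 ± 0.11 at 11 days, Rpn1 −0.49 ± 0.07 and 0.39 ± 0.07, and Pdia3 −0.41 ± 0.05 and 0.36 ± 0.05, each called both times. With Flt3-L alone Hspa5 differed by −0.25 ± 0.06 at 12 h (adjusted p 0.0026) and by 0.27 ± 0.06 at 11 days (adjusted p 5.0e-04) from unstimulated cells, whose signals were 3471, 3610 and 3720. At 24 h Dnajc3 (−0.14 ± 0.05) had an adjusted p of 0.048, or 0.0511 with the replicate block, and Creld2 (−0.20 ± 0.08) one of 0.061, or 0.0451 with it.

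Some members did not follow this course. Sel1l rose at every time, to 2.01-fold at 11 days (adjusted p 3.2e-14), as did Atf6, with 0.24 ± 0.04 at 12 h and 0.69 ± 0.04 at 11 days, and Edem1, with 0.13 ± 0.05 and 0.34 ± 0.05. These 3 were the members called higher at both ends, a pattern that was not counted over all genes. Sec24d and Bet1 had −0.03 ± 0.08 and −0.14 ± 0.10 at 12 h and reached 1.08 ± 0.08 and 0.98 ± 0.10 at 11 days. Alg2 had 0.07 ± 0.06 at 12 h and 0.72 ± 0.06 at 11 days. Herpud1 ran the other way: with Flt3-L alone it was higher by 0.52 ± 0.07 at 12 h and 0.43 ± 0.07 at 24 h and lower at 11 days (−0.58 ± 0.07, adjusted p 1.0e-07), against signals of 2261, 2177 and 2167 in unstimulated cells. Sec61b (−0.27 ± 0.07) and Syvn1 (−0.23 ± 0.06) were the other members called lower at 11 days. Ern1 was higher at 12 h (0.24 ± 0.06), 24 h (0.24 ± 0.06) and 48 h (0.28 ± 0.06) and not called at 11 days (0.12 ± 0.06), against signals of 591, 645 and 657 in unstimulated cells.

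**Figure D5:**
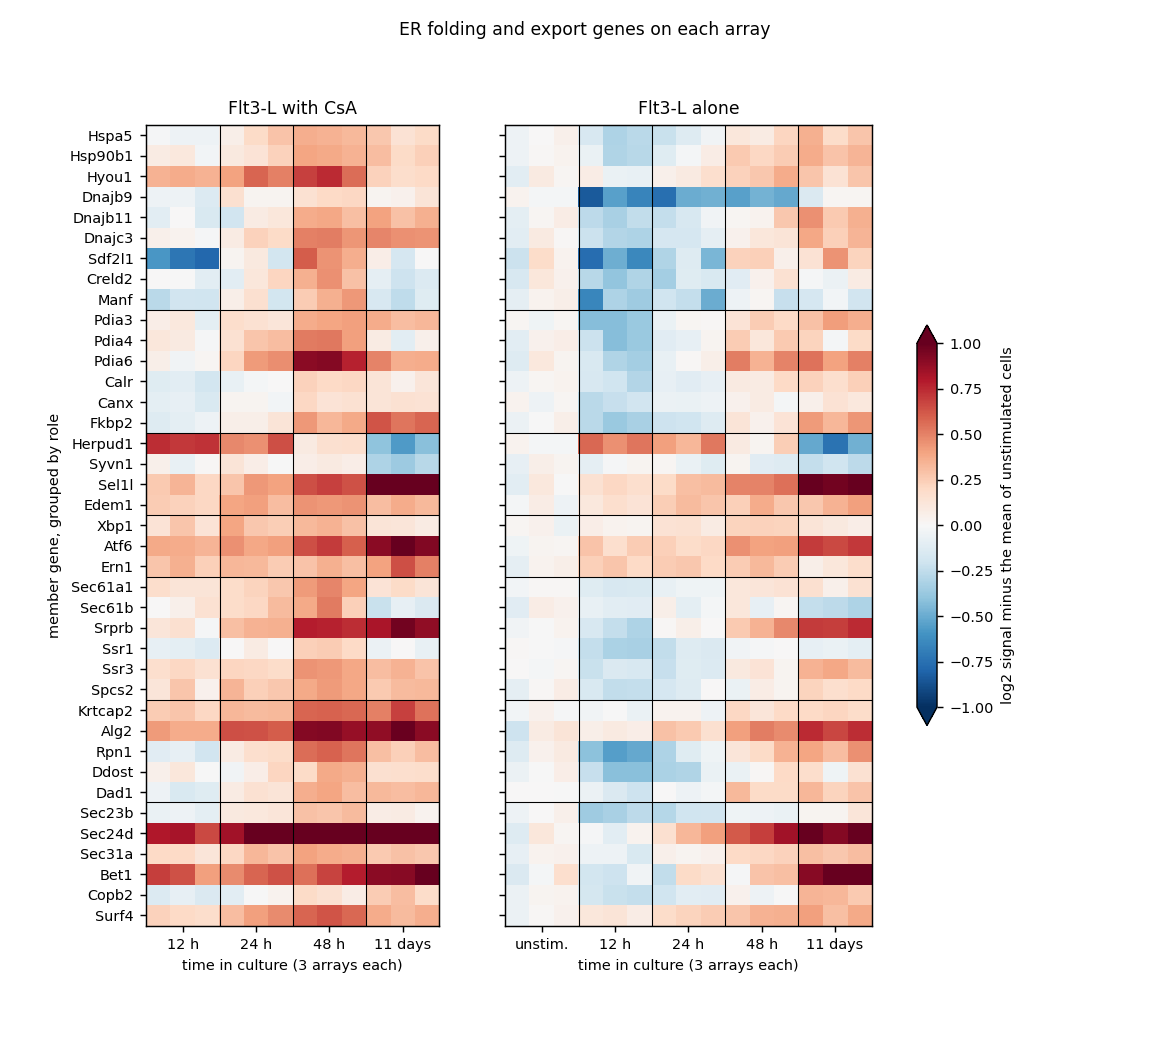
Log2 signal of the 39 members on each array minus the mean of the 3 unstimulated arrays (colour, blue lower and red higher, ending at 1 on either side), in rows grouped by role, with the CsA arrays on the left, the Flt3-L arrays on the right, and time from left to right. Most rows are blue at 12 h with Flt3-L alone and red at 11 days in both arms, and Herpud1 runs from red to blue.

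The wider ER machinery was counted from 5 lists that do not hold the members, 109 genes in all. These lists too were drawn up with earlier results of these data known. Of the 109 genes, 36 were higher and 1 lower with CsA at 12 h, and 26 and 0 at 24 h. At 48 h 36 and 1 were, and at 11 days 7 and 3. The median differences were 0.14, 0.12, 0.15 and 0.04. Of all genes tested, 2.82%, 1.60%, 2.17% and 4.92% were higher and 3.91%, 2.19%, 2.34% and 7.08% lower in order of time. The 11 day counts of the 109 genes lay near or under those shares. The same shares stand beside the counts of each list below, those of the Perk arm, heat shock genes and cyclophilins included. In folding, 6, 4, 6 and 1 of 21 genes were higher in order of time, led by Pdia5, a disulfide isomerase (0.51 ± 0.07, 0.59 ± 0.07, 0.63 ± 0.07 and −0.11 ± 0.07). Translocation had 8, 8, 10 and 0 of 17, with Ssr4 of the TRAP complex at 0.30 ± 0.05, 0.35 ± 0.05, 0.39 ± 0.05 and 0.05 ± 0.05. Glycosylation had 8, 5, 8 and 2 of 22 and vesicle transport 10, 8, 9 and 2 of 32, there with the cargo lectin gene Lman1 at 0.35 ± 0.06, 0.44 ± 0.06, 0.49 ± 0.06 and 0.07 ± 0.06. Degradation had 4, 1, 3 and 2 of 17. Edem2, a mannosidase of this list, was higher at the earlier times (0.39 ± 0.06 at 48 h) and lower at 11 days (−0.34 ± 0.06, adjusted p 2.1e-04). A further list of 13 other ER stress regulators had 1, 1, 1 and 0 higher and 1 lower, at 11 days.

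The Perk arm was counted on its own. Of its 12 genes, 5, 7, 5 and 8 were higher with CsA in order of time, and 1 was lower at each of 24 h, 48 h and 11 days. Atf4, the factor whose translation Perk favours, was higher at all 4 times (0.29 ± 0.05, 0.34 ± 0.05, 0.38 ± 0.05 and 0.33 ± 0.05). Asns and Nupr1, targets of Atf4, had their largest differences at 11 days (1.09 ± 0.07 and 1.13 ± 0.08), and Ddit3, which encodes the stress factor Chop, had 0.58 ± 0.11, 0.41 ± 0.11, 0.35 ± 0.11 and 0.66 ± 0.11. Eif2ak3, the gene of Perk itself, was lower at 24 h (−0.29 ± 0.06) and 48 h (−0.22 ± 0.06). Cytosolic heat shock genes are a chaperone set outside the ER. Of 11 tested, 0, 1, 1 and 0 were higher, and at 11 days 3 were lower, among them Hsph1 (−0.48 ± 0.05).

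Cyclophilins, the proteins that CsA binds, include an ER-resident one, Ppib. It was higher with CsA at 12 h (0.25 ± 0.07, adjusted p 0.024) and not called later (0.10 ± 0.07, 0.12 ± 0.07 and 0.06 ± 0.07). Of the 9 cyclophilin genes, Ppib and Ppig (0.24 ± 0.06) were higher at 12 h, none later, and 1 was lower at 11 days (Ppif, −0.20 ± 0.05). The cytosolic Ppia had −0.01 ± 0.05 at 12 h and −0.01 ± 0.05 at 11 days.

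Markers of 13 cell types were counted in the CsA comparisons, with more calls lower than higher. For all genes tested, 3.91%, 2.19%, 2.34% and 7.08% were lower and 2.82%, 1.60%, 2.17% and 4.92% higher in order of time. A count of 1 or 2 in a short list can say little beside these shares. Plasma cells are rich in ER, and of 9 markers tested 0 were higher and 2, 5, 5 and 5 lower with CsA in order of time. Their summed signal was 2586 to 3079 with CsA at 12 h, against 2932 to 3109 with Flt3-L alone. It was 2143 to 2260 with CsA at 24 h, against 2778 to 2831, and 1879 to 1929 with CsA at 48 h, against 2466 to 2604. At 11 days it was 1895 to 1908 with CsA, against 2670 to 2977. The CsA arrays had the lower sums at 24 h, 48 h and 11 days, and the arms overlapped at 12 h. Within the 11 day sums, Sdc1 had 457, 410 and 449 with CsA, against 908, 928 and 977 with Flt3-L alone. The markers of this list did not move together in culture. With Flt3-L alone at 11 days, Sdc1 and Prdm1 were 3.61- and 4.85-fold of unstimulated cells, and Jchain and Mzb1 0.109- and 0.445-fold. Jchain, which joins secreted antibody chains, differed by 0.04 ± 0.26, −0.96 ± 0.26, −1.48 ± 0.26 and −2.10 ± 0.26. Of 10 eosinophil, basophil and mast cell markers 1, 7, 9 and 6 were lower and 0 higher, and their sum at 48 h was 3345 to 3980 with CsA, against 5929 to 6569 with Flt3-L alone. Of 9 B lineage markers 1, 2, 6 and 5 were lower. Conventional dendritic cell markers had 1, 3, 1 and 9 of 10 lower and 1 higher, at 12 h, and late neutrophil markers 0, 2, 2 and 10 of 11. Calls in the other direction were fewer. All 9 erythroid markers had positive differences at 12 h and 24 h, with 0, 1, 1 and 1 called higher and 2 lower, at 11 days. The erythroid sum was 29204 to 30689 with CsA at 12 h, against 25752 to 28532 with Flt3-L alone, and 4693 to 5243 with CsA at 11 days, against 3801 to 4115. Most of the 11 day sums came from Tfrc, with 4472, 4058 and 4571 under CsA, against 3050, 3239 and 3280 with Flt3-L alone. Tfrc was the marker called higher at 11 days, and the 2 called lower were Alas2 (−0.28 ± 0.06) and Car2 (−1.38 ± 0.16). At 24 h and 48 h the erythroid arms lay at 21345 to 24047 with CsA, against 19407 to 21483, and at 12024 to 13046 with CsA, against 10572 to 12044. Of 10 monocyte and macrophage markers 0, 1, 0 and 1 were higher, Ms4a7 at 24 h (0.62 ± 0.10) and at 11 days (0.36 ± 0.10), and 3, 2, 2 and 1 lower. Lower at 12 h were Cd14 (−0.75 ± 0.11), Adgre1 (−0.64 ± 0.06) and Csf1r (−0.30 ± 0.06), and lower at 11 days was Ccr2 (−1.21 ± 0.09). The sum of the 10 monocyte and macrophage markers was 42879 to 44295 with CsA at 11 days, against 40871 to 42825 with Flt3-L alone. Of 10 plasmacytoid dendritic cell markers 5 were higher at 11 days, with Cox6a2 at 1.63 ± 0.15, and 2, 0, 3 and 4 were lower. The 4 lower at 11 days were Ly6d (−1.34 ± 0.13), Ccr9 (−0.61 ± 0.14), Siglech (−0.57 ± 0.08) and Tlr9 (−0.20 ± 0.06). Among progenitor, promyelocyte, T and NK cell, megakaryocyte, and stromal and endothelial markers, the calls before 11 days were 1 progenitor marker lower at 24 h and 2 lower at 48 h. At 11 days 4 of 7 progenitor, 2 of 6 promyelocyte, 5 of 8 T and NK cell, 2 of 6 megakaryocyte and 1 of 8 stromal and endothelial markers were lower, and 1 progenitor and 2 stromal and endothelial markers were higher. The part of these markers in the ER gene differences was not tested.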

How the data were processed

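Per the labels' protocols, Trizol-extracted total RNA was amplified by a whole transcript kit and carried a biotin label. The authors deposited 1 intensity per probe set and array, on a linear scale (5.2 to 18180.7). RMA is named without a version by the submitters' processing notes. RMA corrects background, normalizes across arrays and summarises probes, so that a shift shared by most genes would not show. The log2 of the deposited values was taken here before any test.

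The table held 28815 probe sets, 21780 with 1 gene symbol in GEO's platform annotation (possibly outdated), 1605 with several (left out) and 5430 unnamed. This gave 19935 genes, each represented by its brightest probe set (mean log2 of the 27 arrays). Kdelr2 was not analysed here. The model had 1 mean for each of 9 groups of 3 arrays and was fitted over all genes by limma 3.58.1 (R 4.3.3; empirical Bayes), and p-values were adjusted (Benjamini-Hochberg) over all genes of a comparison. The threshold for a call was an adjusted p of 0.05. The number of arrays limits the precision, and dim signals have no detection call. The fit was tested on simulated data. Python 3.11.15 was used for tables (pandas 2.3.3, numpy 2.4.6) and for plots (matplotlib 3.10.9).

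The members, gene lists and tests were chosen with earlier results of these data known. Values on every array are given for the 12 members with the smallest F test p over the 4 CsA effects and for Hspa5, Xbp1, Atf6, Ern1, Herpud1 and Sdf2l1. Outside the members, Ppia, Ppib, Ppic, Eif2ak3, Atf4, Ddit3 and the 3 genes with the smallest F test p of each wider list could be named.

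Replicate numbers were checked for pairing by correlating, across genes, the deviations of equally numbered arrays from their group means. All comparisons of one group with another were checked. Every pair exceeded 0.1 for CsA at 24 h (0.37, 0.35 and 0.40) and at 48 h (0.54, 0.18 and 0.19), for Flt3-L alone against unstimulated cells at 12 h and 24 h, and for Flt3-L alone at 48 h against 24 h (0.46, 0.45 and 0.41). In the other comparisons at least 1 pair did not, as for CsA at 12 h (0.19, 0.19 and 0.10). With CsA at 48 h arrays 2 and 3 were closer to an unlike-numbered array (0.23 and 0.22). The labels state no pairing, and values with the replicate number as a block are given where they change a call in the paired comparisons. The labels give no scan date or batch. Alternatives were a repeated quantile normalization, subtraction of array medians, omission of the dimmest genes (1 in 3), a variance trend, array weights, averaged probe sets, a fit on the compared groups alone, the replicate block, and each array left out in turn. A planned description of protein ends was not made.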

Additional observations from a re-analysis of the deposited data

Results flagged for a closer look

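The CsA effect on 23 members differed between 11 days and the mean of the 3 earlier times, by the limma test of that difference over all genes (adjusted p under 0.05, 3 arrays a group). It is given as the effect at 11 days minus the earlier mean, in log2. Ern1, the Ire1 alpha gene, had the larger effect at 11 days, by 0.35. For the other 22 the effect at 11 days was the lower one with its sign, which need not be smaller in size. Sdf2l1 had −0.06, 0.28 and 0.30 earlier and −0.30 at 11 days, and Calr 0.08, 0.06 and 0.09 earlier and −0.11 at 11 days. Among chaperones and their partners the difference was −0.54 for Dnajb9, −0.48 for Sdf2l1, −0.45 for Creld2, −0.41 for Hyou1, −0.37 for Manf, −0.31 for Hspa5 and −0.28 for Hsp90b1. Among isomerases and lectins it was −0.45 for Pdia4, −0.43 for Pdia6, −0.28 for Pdia3 and −0.19 for Calr. In translocation and glycosylation it was −0.38 for Ssr3, −0.27 for Spcs2, −0.26 for Sec61a1, −0.18 for Ssr1 and −0.44 for Rpn1. In vesicle export it was −0.64 for Sec24d, −0.62 for Bet1, −0.30 for Sec23b, −0.23 for Sec31a, −0.19 for Surf4 and −0.18 for Copb2. The cell makeup of the cultures also differed between these times, with a late neutrophil marker sum of 1276 to 1584 with CsA at 11 days and 51187 to 55524 with CsA at 48 h, and its part in these differences was not tested.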

How the results depend on the processing

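For members called with CsA against Flt3-L alone, the direction held under every alternative run, and other directions were not followed in this way. Of the counts and medians, 289 stayed close to the reported value and 12 moved further. Close means counts within 1.5 times and medians within the SD between arrays. Of the values of these called members, calls gained left aside, 963 kept their side of the threshold and 115 lost it. The fit on the compared groups alone accounted for 36 of the 115. That fit, with fewer arrays behind each variance, called 10 members with CsA at 12 h, 13 at 24 h, 15 at 48 h and 3 at 11 days, and 17 for Flt3-L alone at 48 h against 24 h. With 1 array left out in turn, the counts ran from 18 to 24 at 12 h, 18 to 24 at 24 h, 19 to 24 at 48 h and 3 to 5 at 11 days. For Flt3-L alone at 24 h against 12 h they ran from 5 to 10, with 16 under array weights. The change of the CsA effect between 12 h and 24 h was called for 0 to 1 members with 1 array left out (1 without the third CsA array at 12 h) and for 1 under array weights. Subtracting array medians moved the median of the members at 12 h to 0.291, where all genes lay at −0.04 before. The cause was not tested for array weights. With the replicate number as a block, 25, 26, 27 and 7 members were called with CsA in order of time (6 higher and 1 lower, Sdf2l1, at 11 days). In the paired comparisons the block changed no call other than those given beside their members. In comparisons where not every pair exceeded 0.1 it gained Herpud1 and Xbp1 with CsA at 12 h (there each CsA array was closest to its own number), Fkbp2 and Edem1 for Flt3-L at 24 h against 12 h, Rpn1 at 11 days against 48 h, and it gained Hspa5 in the test of the CsA effect at 11 days against 48 h, which spans a paired and an unpaired time. The 3 arrays of a group, a mixed cell population and differences mostly under 1.5-fold limit what can be read from single members.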
